A study of Mus musculus with 2 samples.

Results

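Ribosome biogenesis factors are the proteins that transcribe, cut, modify and fold ribosomal RNA and assemble it with ribosomal proteins. A list of 49 such genes was examined on the 2 arrays of a study of CD8+ T cell activation. The genes were listed by name, with earlier results of these data known, so the list is not independent of them. Every probe set (a group of short probes read as a single value) whose platform annotation names only a listed gene was taken. This gave 96 probe sets for 48 of the 49 genes, out of 34945 probe sets with a single symbol for 18193 genes on the array. Mrto4, a 60S assembly factor, had no probe set of its own symbol and has no value here. The activated group was proliferating CD8+ T cells 72 h after activation, and the naive group was purified resting CD8+ T cells. Both came from pmel-1 mice, which carry a transgenic T cell receptor that recognises a melanocyte antigen, so that most of the T cells share a single specificity. No label states the stimulus, the source organ or the age and sex of the mice. RNA from 4 experiments was pooled for each array and each group had 1 array, so no value below has a replicate error or a p-value.

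Ribosomes are built in the nucleolus. RNA polymerase I transcribes a long precursor RNA, small nucleolar ribonucleoproteins (snoRNPs) guide its chemical modification, and the small-subunit processome and the 60S assembly factors cut and fold it into the 2 subunits before export to the cytoplasm. A resting T cell is small and makes little protein, and enlargement of the nucleolus is a classic sign of lymphocyte activation. Many of these genes are known targets of the transcription factor MYC, which binds the E-box, the 6-letter motif CACGTG.

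The E-box was therefore looked up in the members' promoter sequences, taken from RefSeq (mouse build GRCm38.p6) as windows from 250 bases before to 50 after each annotated start. Of the 48 genes, 42 had a window. CACGTG, which reads the same on both strands, was present for 8 of these 42 genes (19.0%), against 12% of 8041 measured genes with a window and 8.09% of all 27025 genes with a window. The 8 matches are shown because they are the E-boxes of the list, each as 30 bases of the strand of the gene with the motif in capitals.
Nop2, chr6:125131811-125131840, plus strand: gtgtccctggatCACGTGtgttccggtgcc
Imp4, chr1:34439696-34439725, plus strand: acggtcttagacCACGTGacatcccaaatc
Utp18, chr11:93885769-93885798, minus strand: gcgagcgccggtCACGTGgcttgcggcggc
Pes1, chr11:3963965-3963994, plus strand: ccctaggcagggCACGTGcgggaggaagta
Wdr43, chr17:71616220-71616249, plus strand: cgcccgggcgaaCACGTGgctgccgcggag
Nle1, chr11:82908355-82908384, minus strand: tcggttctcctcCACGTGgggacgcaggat
Utp20, chr10:88826765-88826794, minus strand: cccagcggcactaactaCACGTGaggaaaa
Mybbp1a, chr11:72441347-72441376, plus strand: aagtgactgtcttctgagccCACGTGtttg
In Nop2, Imp4 and Utp18 the motif lay before the annotated start, and in the other genes just after it. A match describes these letters and does not show binding.

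Other promoter motifs were searched on both strands in the same windows. The ETS core CCGGAAG was found for 13 of 42 member genes (31.0%), against 22.2% of measured genes, and the GC box GGGCGG for 34 (81.0%), against 69.0%. The CCAAT box (CCAAT) was found for 17 (40.5%), against 43.2%, the YY1 core ATGGCGG for 5 (11.9%), against 10.3%, and the TATA box letters TATAAA for 2 (4.76%), against 8.56%. None of these motifs contains another, although neighbouring matches may share bases. The 150 bases before the start are shown for the members with the highest ratios, Noc4l, Nop16 and Nhp2, and for Imp3 and Nop14, which had a single probe set each and the lowest ratios among such members. Capitals mark the motifs named here.
Noc4l, chr5:110653383-110653532, minus strand: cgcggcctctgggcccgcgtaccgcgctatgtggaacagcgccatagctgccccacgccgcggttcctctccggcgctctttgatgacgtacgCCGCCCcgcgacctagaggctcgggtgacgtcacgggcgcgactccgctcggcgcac
Nop16, chr13:54590075-54590224, minus strand: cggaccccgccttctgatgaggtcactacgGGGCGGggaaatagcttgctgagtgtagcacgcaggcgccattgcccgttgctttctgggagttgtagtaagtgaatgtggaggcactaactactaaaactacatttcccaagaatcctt
Nhp2, chr11:51619623-51619772, plus strand: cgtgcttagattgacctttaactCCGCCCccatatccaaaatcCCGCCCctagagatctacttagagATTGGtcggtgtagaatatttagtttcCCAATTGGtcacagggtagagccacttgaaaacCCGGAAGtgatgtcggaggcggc
Imp3, chr9:56937350-56937499, plus strand: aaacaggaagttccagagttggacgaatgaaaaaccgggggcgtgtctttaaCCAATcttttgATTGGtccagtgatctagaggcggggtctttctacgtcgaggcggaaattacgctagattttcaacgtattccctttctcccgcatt
Nop14, chr5:34660149-34660298, minus strand: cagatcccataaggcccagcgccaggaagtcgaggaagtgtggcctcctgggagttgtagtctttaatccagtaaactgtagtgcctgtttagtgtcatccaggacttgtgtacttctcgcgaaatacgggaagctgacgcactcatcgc
Nhp2 carried matches to the GC box, the CCAAT box and the ETS core in this stretch, and Nop14 carried none of the motifs there.

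Values are the submitters' normalized intensities on a linear scale, and a gene's value is that of its brightest probe set, by the mean of the 2 arrays. A gene was counted as higher or lower when the intensities differed by more than 100 and their ratio was 1.4 or more in that direction, after raising any value under 100 to 100. A gene was measured when at least 1 array reached 100. In place of replicates, a pair of yardsticks is available, though neither measures the variation between arrays or between pools. The first is the background, in which 23.7% of the 9842 measured genes were higher and 20.6% were lower. The second is the spread between probe sets of the same gene, a standard deviation of 0.47 on the log2 scale over 4292 genes and of 0.40 over the 27 members with more than 1 measured probe set. Levels of different genes are not compared, because each probe set has its own sensitivity. The arrays give each transcript relative to the others, so less RNA per cell and fewer cells of a type cannot be told apart, and a change in total RNA per cell is not seen.

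The CD8 label was checked against marker genes. All 8 CD8 T cell markers with a probe set exceeded 100 on both arrays, with summed intensities of 28924 in activated and 39787 in naive cells, and Cd4 lay at 50.5 and 45.1. Markers of other cells had higher sums in the naive pool. The 7 B cell markers summed to 707 in activated and 5683 in naive cells, and the 7 myeloid markers to 633 and 1281. The 3 NK cell markers summed to 272 and 694, and the 3 erythroid markers to 152 and 285. Single genes carried much of some sums: Cd74 was at 405 in activated and 3003 in naive cells, and H2-Aa at 83.0 and 2007. Alas2 was at 1.0 and 127, while Slc4a1 was at 105 and 107 and Hba-a1 at 45.9 and 50.9. The myeloid markers Cd68 (86.65 and 64.53) and Cd14 (48.77 and 48.25) were not brighter in the naive pool. Of the defining B cell genes, Cd79b was at 40.04 in activated and 293 in naive cells, Cd79a at 25.4 and 112, Ms4a1 at 43.9 and 136, and Pax5 at 56.1 and 44.7. None of these markers was at 0. The part of these cells in the results below was not tested.

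As a group the ribosome biogenesis factors were moderately higher in activated cells. Of the 48 members, all measured, 36 (75%) were higher by the size rule and none was lower, against 23.7% higher and 20.6% lower among all measured genes. Among the 6553 genes within the members' range of mean intensity, 29.3% were higher and 24.9% lower. The ratio was above 1 for 44 members, against 50.7% of measured genes. The median log2 ratio of the members was 0.64, with quartiles of 0.50 and 0.93, and that of all measured genes was 0.01. Most ratios were under 2-fold: 11 members were at least 2-fold higher (22.9%, against a background of 12.1%). None reached 4-fold by its brightest probe set, which says little because only 322 of the 9842 measured genes did. Among member probe sets, 2 reached 4-fold, both of Noc4l. In all, 39 of the 48 ratios lay between 0 and 1.1 on the log2 scale, against 40.4% of measured genes. The edge of 1.1 is not a threshold of the size rule and lies just above Bysl (1.09), so this comparison is a description only. The standard deviation across members was 0.40, compared with 0.95 across all measured genes and with 0.40 between probe sets of the same member. Accordingly, 35 members lay within that spread of the median, and the order among them is not resolved. Counted by probe set, 58 of 87 measured were higher and none lower, against 21.9% and 19.3% of all measured probe sets. The counts by role and by list below stand beside the background of 23.7% higher and 20.6% lower among all measured genes.

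**Figure D1:**
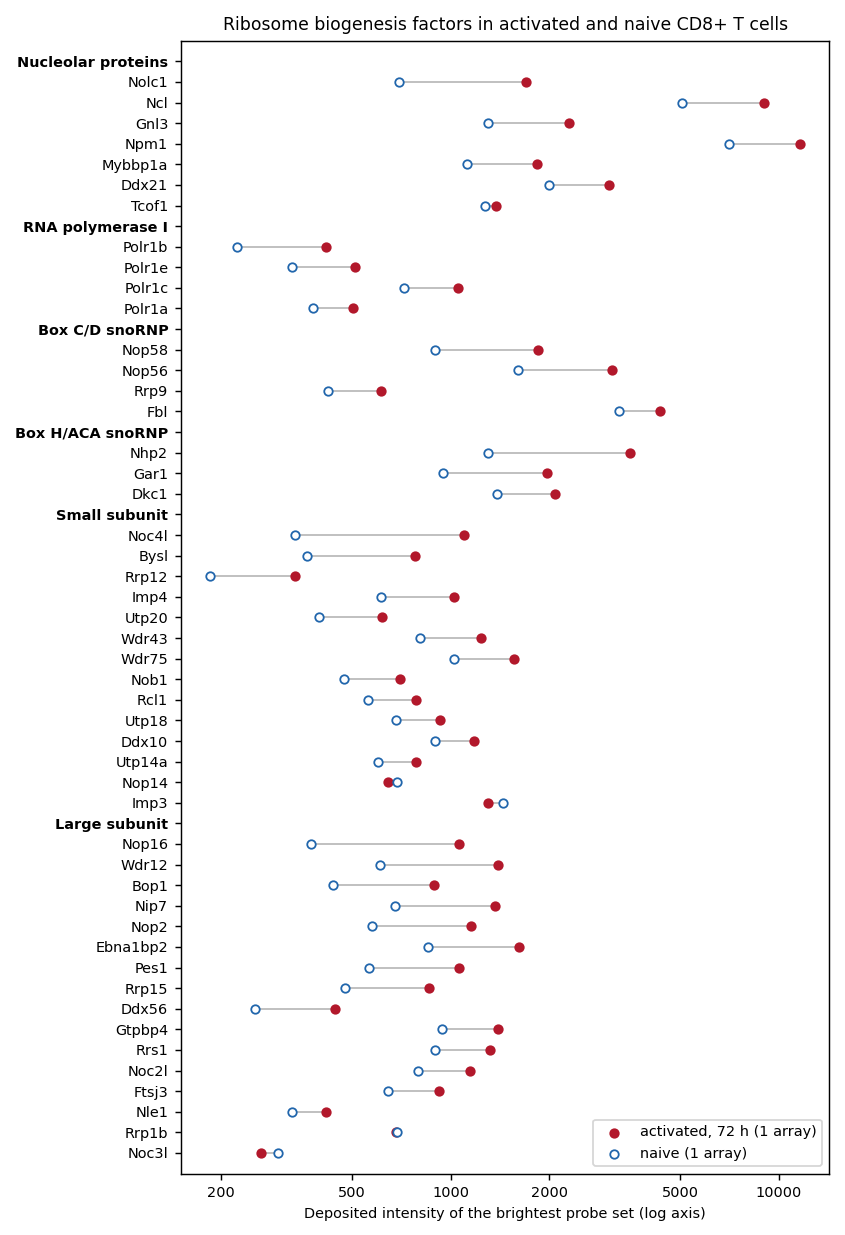
Deposited intensity (log axis) of the brightest probe set of each of the 48 members, by role and, within a role, by ratio. Filled red points are the activated array and open blue points the naive array, 1 array each; the red point lies to the right for 44 members.

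**Figure D2:**
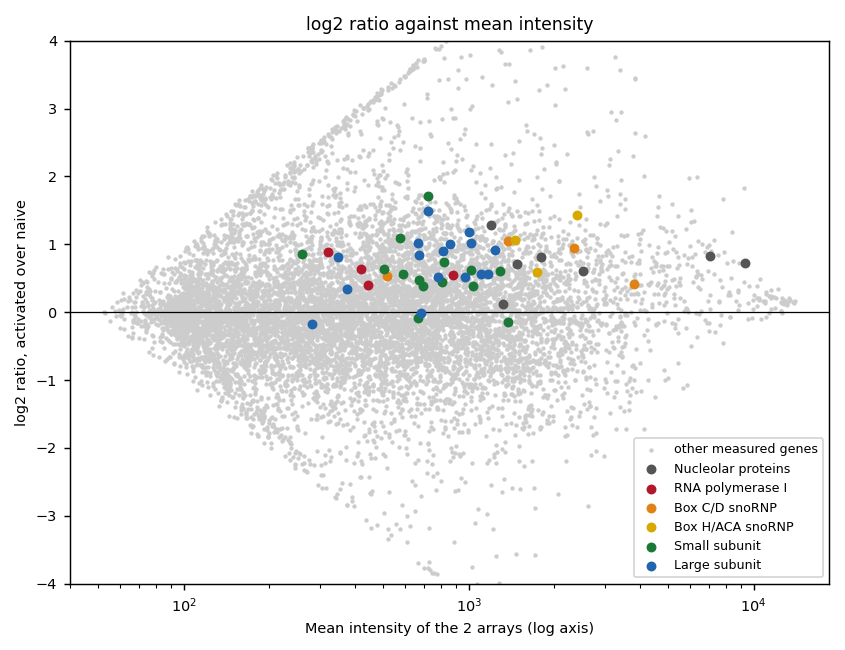
log2 ratio of activated over naive cells against the mean intensity of the 2 arrays (log axis), 1 point per gene. Grey points are other measured genes, coloured points the members by role, and 32 genes beyond the vertical axis limits of 4 are not drawn; 44 of the 48 members lie above 0.

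Of the 7 nucleolar proteins that organise the compartment, 6 were higher (median log2 ratio 0.72). Npm1, nucleophosmin, an abundant nucleolar chaperone, was at 11587 in activated and 7034 in naive cells (1.65-fold higher). Ncl, nucleolin, which binds the nascent precursor RNA, was at 8976 in activated and 5066 in naive cells (1.77-fold higher). Both were among the brightest probe sets of the array, with only 0.229% and 0.482% of probe sets brighter on the activated array. With quantile normalization, Npm1 (log2 ratio 0.47) and Ncl (0.48) no longer passed, and with loess scaling Npm1 (0.44) did not. Nolc1, a chaperone of snoRNPs also called Nopp140, had the largest ratio of this group, at 1695 in activated and 698 in naive cells (2.43-fold higher), although 1 of its 3 probe sets, at a log2 ratio of 0.45, did not pass. Gnl3, the GTP-binding protein nucleostemin, was at 2288 in activated and 1298 in naive cells (1.76-fold higher). Mybbp1a, a Myb-binding nucleolar protein, was at 1834 in activated and 1122 in naive cells (1.63-fold higher), and its promoter holds an E-box after the start. Ddx21, an RNA helicase that acts in both transcription and processing, was at 3036 in activated and 1996 in naive cells (1.52-fold higher), although its other probe set gave a log2 ratio of only 0.17. The exception was Tcof1, treacle, a cofactor of RNA polymerase I. Its 3 probe sets gave log2 ratios between -0.15 and 0.12, and the brightest was at 1379 in activated and 1269 in naive cells.

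For RNA polymerase I itself, 3 of 4 listed subunits were higher (median log2 ratio 0.59). Polr1b, the second-largest subunit, was at 416 in activated and 224 in naive cells (1.86-fold higher). Polr1e, also called PAF53, was at 511 in activated and 328 in naive cells (1.56-fold higher). Polr1c, which RNA polymerase III shares, was at 1051 in activated and 719 in naive cells (1.46-fold higher), just past the threshold. Polr1a, the largest and catalytic subunit, was at 504 in activated and 380.3 in naive cells, a 1.33-fold ratio that did not pass. Its 3 measured probe sets disagreed in sign, with log2 ratios between -0.31 and 0.72.

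The other Pol I transcription genes were 11 measured subunits and initiation or termination factors outside the member list. They included 2 higher and 1 lower gene (median log2 ratio 0.07, and -0.02 with quantile normalization). These shares, 18.2% higher and 9.09% lower, were under the 23.7% and 20.6% of all measured genes. Polr1d, a subunit shared with RNA polymerase III, was at 3645 in activated and 2138 in naive cells, and Rrn3, the growth-regulated initiation factor, was at 564 in activated and 384 in naive cells. Ttf1, the termination factor, was lower, at 239 in activated and 349 in naive cells. Taf1a, of the promoter selectivity factor, was at 120 in activated and 217 in naive cells, and did not pass because the difference was under 100. The general Pol I activator Ubtf, named after its values were seen, was at 759 in activated and 868 in naive cells and did not pass.

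The snoRNP proteins fall into the box C/D and box H/ACA classes. The box C/D particles place 2′-O-methyl groups on ribosomal RNA, and 3 of 4 members were higher (median log2 ratio 0.74). Nop58, a scaffold of the particle, was at 1851 in activated and 895 in naive cells (2.07-fold higher). Its partner Nop56 was at 3097 in activated and 1600.4 in naive cells (1.93-fold higher), and the partners' log2 ratios differed by 0.10. Rrp9, which binds the U3 snoRNA needed for cutting, was at 614 in activated and 424 in naive cells (1.45-fold higher). Fbl, fibrillarin, the methyltransferase of the particle, was at 4343 in activated and 3266 in naive cells, a 1.33-fold ratio that did not pass. Its second probe set, at a log2 ratio of 0.50, did pass.

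All 3 members of the box H/ACA particles, which convert uridine to pseudouridine, were higher (median log2 ratio 1.06). Nhp2, a core protein that binds the guide RNA, was at 3509 in activated and 1303 in naive cells (2.69-fold higher), and both of its probe sets passed, at 1.37 and 1.43 on the log2 scale. Gar1, which helps substrate turnover, was at 1971 in activated and 945 in naive cells (2.09-fold higher). Dkc1, dyskerin, the pseudouridine synthase, which also belongs to telomerase, was at 2078 in activated and 1384 in naive cells (1.501-fold higher). Its 3 probe sets were all past the size rule, with log2 ratios between 0.56 and 0.84.

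Factors that assemble these particles, outside the member list, were higher at 7 of 9 measured genes and lower at none (median log2 ratio 1.26). The highest were Znhit3, at 915 in activated and 283 in naive cells, Shq1, the dyskerin chaperone, at 267 in activated and 106 in naive cells, and the AAA+ ATPase gene Ruvbl1, at 1077 in activated and 435 in naive cells. Nop10, the remaining H/ACA core gene, was at 3527 in activated and 3539 in naive cells, and Pih1d1 at 587 in activated and 492 in naive cells. Neither of these last genes passed.

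In the small-subunit group, which covers the early processome and later 40S maturation, 8 of 14 members were higher and the median log2 ratio was 0.59. Noc4l, a nucleolar 40S factor, had the highest ratio of all members, at 1100.0 in activated and 336 in naive cells (3.27-fold higher). Its 4 probe sets were all past the size rule, at log2 ratios between 1.56 and 2.06. Bysl, bystin, needed for late 40S steps, was at 782 in activated and 366 in naive cells (2.14-fold higher). Rrp12, a factor in 40S maturation and export, was at 335 in activated and 186 in naive cells (1.81-fold higher). Nob1, the endonuclease that makes the last cut of 18S RNA, was at 700.4 in activated and 473 in naive cells (1.48-fold higher). All 4 of these genes were higher.

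Imp4, of the U3-associated MPP10 complex, was at 1027 in activated and 614 in naive cells (1.67-fold higher), with an E-box before its start. Its other 2 probe sets, at log2 ratios of 0.38 and 0.12, did not pass. Utp20, a large scaffold of the processome, was at 617 in activated and 396 in naive cells (1.56-fold higher). Wdr43 and Wdr75, WD-repeat proteins of the subcomplex that links transcription to processing, were near each other in ratio. Wdr43 was at 1239 in activated and 804 in naive cells (1.54-fold higher), and Wdr75 was at 1558 in activated and 1024 in naive cells (1.52-fold higher). A dim second probe set of Wdr75, at 92.8 in activated and 112 in naive cells, had the opposite sign.

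The other 6 small-subunit members did not pass, and 4 of them lay just under the fold threshold. Rcl1, a cyclase-like protein implicated in precursor cutting in yeast, was at 783 in activated and 561 in naive cells, a 1.39-fold ratio. Utp18 was at 930.4 in activated and 681 in naive cells (1.37-fold), and holds an E-box before its start. Ddx10, a helicase, was at 1175 in activated and 899 in naive cells (1.31-fold), and its other probe set passed, at a log2 ratio of 0.70. Utp14a, an activator of the processome helicase in yeast, was at 782 in activated and 600.2 in naive cells (1.303-fold). Imp3 and Nop14 differed from these in lying below a ratio of 1. Imp3 was at 1301 in activated and 1442 in naive cells, and Nop14 at 643 in activated and 685 in naive cells. Each rested on 1 probe set.

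Other small-subunit factors, outside the member list, numbered 47 measured genes. Of these, 21 passed as higher (44.7%, against 23.7% of all measured genes) and none as lower (median log2 ratio 0.44). Pno1, the partner of Nob1, led them at 1896 in activated and 792 in naive cells, followed by Nop9, at 882 in activated and 384 in naive cells, and Utp23, at 495 in activated and 217 in naive cells. The lowest ratios were those of Trmt112, a methyltransferase cofactor, at 2698 in activated and 3650.1 in naive cells, and of the kinase gene Riok3, at 1282 in activated and 1673 in naive cells, neither past the size rule.

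The 60S assembly factors numbered 16 measured members, of which 13 were higher (median log2 ratio 0.83). Pes1, Bop1 and Wdr12 form the PeBoW complex, which is needed to process the large-subunit RNAs and for cell cycle progression. Wdr12 was at 1391 in activated and 610.2 in naive cells (2.28-fold higher), although a second probe set, at a log2 ratio of 0.50, did not pass. Bop1 was at 889 in activated and 439 in naive cells (2.02-fold higher), although a dim probe set had a log2 ratio of -0.10. Pes1, pescadillo, was at 1059 in activated and 564 in naive cells (1.88-fold higher). By their brightest probe sets, the log2 ratios of the 3 subunits spanned 0.28. The measured probe sets of Bop1 alone spanned 1.12 and those of Wdr12 0.68, so this closeness depends on the probe set chosen.

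Nop16 had the second-highest ratio of all members, at 1061 in activated and 376 in naive cells (2.82-fold higher). Nip7 was at 1368 in activated and 677 in naive cells (2.02-fold higher), but a second probe set, at 116 in activated and 171 in naive cells, had the opposite sign. Nop2, an RNA methyltransferase long used as a proliferation antigen, was at 1151 in activated and 575 in naive cells (2.00-fold higher), and holds an E-box before its start. Ebna1bp2 was at 1621 in activated and 856 in naive cells (1.89-fold higher). With Wdr12 and Bop1, the genes Nop16, Nip7 and Nop2 made up the 5 large-subunit members that differed at least 2-fold.

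Smaller ratios past the threshold were found for 6 further genes. Rrp15 was at 861 in activated and 479 in naive cells (1.80-fold higher). Ddx56, a helicase, was at 446 in activated and 253 in naive cells (1.76-fold higher). Gtpbp4, the GTPase also called Nog1, was at 1392 in activated and 939 in naive cells (1.48-fold higher), with 3 probe sets between 0.42 and 0.64 on the log2 scale. Rrs1, which in yeast helps to bring in the 5S RNA, followed the same pattern, at 1318 in activated and 895 in naive cells (1.47-fold higher). Noc2l, which is also known as an inhibitor of histone acetyltransferases, was at 1142 in activated and 795 in naive cells (1.44-fold higher). Ftsj3, a methyltransferase, was at 920.0 in activated and 645 in naive cells (1.43-fold higher), the smallest ratio that passed.

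Nle1, Rrp1b and Noc3l were the large-subunit members that did not pass. Nle1, which prepares the particle for the remodelling ATPase Mdn1, was at 417 in activated and 329.9 in naive cells, a 1.26-fold ratio. For the remaining pair the outcome depended on the probe set. Rrp1b was at 680.0 in activated and 685 in naive cells by its brightest probe set, while both other probe sets passed, at 0.76 and 1.102 on the log2 scale. Noc3l was at 264 in activated and 299 in naive cells by its brightest probe set, the lowest ratio of all members, while its other probe set was at 292 in activated and 172 in naive cells, a log2 ratio of 0.77.

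Other 60S factors, outside the member list, numbered 52 measured genes. Of these, 25 passed as higher (48.1%, against 23.7% of all measured genes) and 2 as lower (median log2 ratio 0.43). Lyar, a nucleolar growth regulator, was at 1944 in activated and 552 in naive cells, Urb2 at 436 in activated and 167 in naive cells, and Rsl1d1 at 2235 in activated and 908 in naive cells. The lower pair was Nop53, at 2525 in activated and 5070.4 in naive cells, and Nsa2, at 2673 in activated and 4245 in naive cells.

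**Figure D3:**
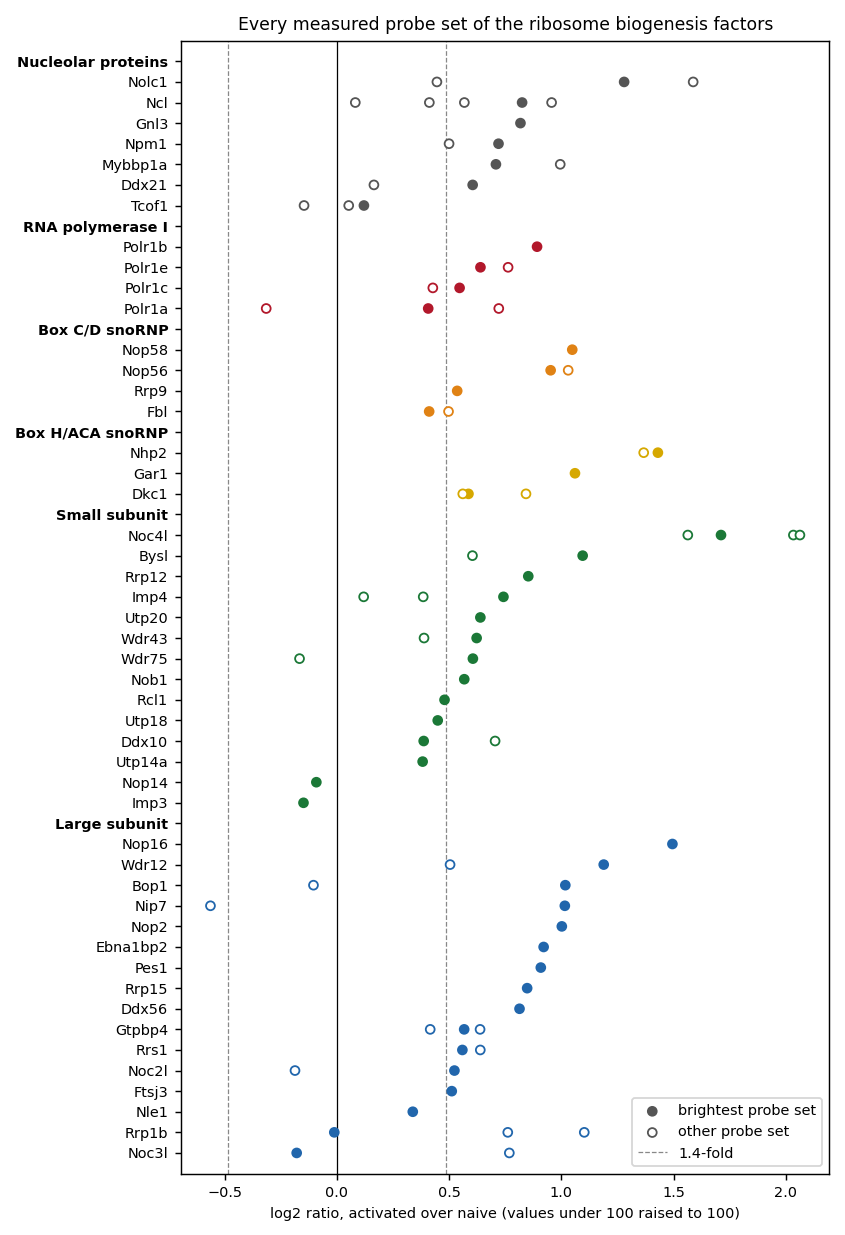
log2 ratio of activated over naive cells for each of the 87 measured member probe sets, by gene and role. Filled points are the brightest probe set of a gene, open points the others, the solid line is no difference and the dashed lines are 1.4-fold; open points of Nip7, Bop1, Noc2l and Wdr75 fall left of 0 while the filled points lie right of the upper dashed line.

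Agreement between probe sets set the limit of these statements. Of the 27 members with more than 1 measured probe set, 9 had all of them past the size rule in the direction of activated cells, and in 17 the probe sets disagreed on passing. In 8 of the 27, the probe sets differed in sign. The same counts were not made for all genes, so whether such agreement is usual on the array is not known. The spread between probe sets was 0.40 for these members and 0.47 over 4292 genes. Counting a gene when any of its probe sets was higher gave 41 of the 48 members, against 27.1% of all genes counted the same way. By their lowest probe set 24 were higher and none lower, against 18.4% and 22.7% of all genes treated in that way. The members that lost the call by their lowest probe set were Ncl, Nolc1, Ddx21, Polr1c, Wdr43, Wdr75, Imp4, Bop1, Wdr12, Noc2l, Nip7 and Gtpbp4. The other 21 members rested on 1 measured probe set. Scaling by quantiles or by loess left Polr1c, Rrp9, Nob1, Ftsj3 and Noc2l under the fold threshold, at log2 ratios between 0.41 and 0.48, and loess also Ddx21 (0.47). A difference minimum of 200 in place of 100 left out Polr1b, Polr1e, Rrp9, Rrp12 and Ddx56.

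Partners within complexes, grouped after the values were seen, were close in some cases and apart in others. Nop56 and Nop58 were 0.10 apart on the log2 scale, and the PeBoW subunits spanned 0.28. With Fbl included, the box C/D core of Fbl, Nop56 and Nop58 spanned 0.64. The members of the H/ACA core spanned 0.84, and Noc2l and Noc3l were 0.70 apart. Imp3 and Imp4, which sit in the same U3-associated complex, were 0.89 apart. Noc4l and Nop14, which bind each other in yeast, were 1.80 apart, the widest of the 7 groupings compared. By kind of protein, the 3 helicases (Ddx10, Ddx21, Ddx56) had a median log2 ratio of 0.60, the 7 WD-repeat proteins (Bop1, Wdr12, Wdr43, Wdr75, Utp18, Nle1 and Rrp9) one of 0.61 and the 3 RNA methyltransferases (Fbl, Nop2, Ftsj3) one of 0.51, all near the median of the whole list.

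Ratios of members with and without each motif are given as a description, without a test. The 8 members with an E-box had log2 ratios between 0.34 and 1.002 and a median of 0.67, and the 34 with a window but without an E-box had a median of 0.62. By the size rule, 6 of the 8 and 26 of the 34 were higher. The 13 members with the ETS core had a median of 0.85 and a range from -0.18 to 1.43, and the 29 without had a median of 0.62. The calls were alike, with 10 of the 13 and 22 of the 29 higher. For the CCAAT box the medians lay the other way, at 0.54 for the 17 members with it, of which 9 were higher, and 0.83 for the 25 without, of which 23 were higher. For the GC box they were 0.73 for the 34 members with it and 0.55 for the 8 without, and 27 of the 34 and 5 of the 8 were higher. For the YY1 core they were 0.64 for the 5 with it and for the 37 without, and 4 of the 5 and 28 of the 37 were higher. The TATA letters were present in only 2 members. Upstream GC content was 57.8% at the median for members and 59.6% for all measured genes.

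The ribosomal proteins, the products that these factors assemble, had ratios nearer to 1. Only 22 of the 33 listed 40S symbols and 22 of the 47 listed 60S symbols had a probe set naming that gene alone. The 43 measured cytosolic ribosomal protein genes had a median log2 ratio of 0.16, and 1 passed in each direction. This median did not keep its sign under other scalings: the 40S and 60S proteins had medians of 0.06 and 0.17 as deposited, -0.07 and -0.003 with quantile normalization, and -0.20 and -0.11 with loess. The higher one was Rpl14, at 824 in activated and 506 in naive cells, and the lower one Rpl12, at 304 in activated and 681 in naive cells. Both were named after their values were seen, and both were read by probe sets far dimmer than the medians of these genes. Ribosomal protein intensities were near the top of the array, with medians of 11627 in activated and 10419 in naive cells, and the part of this brightness in their small ratios was not tested. Over the 4 lists of other biogenesis factors, 55 of 119 measured genes (46.2%) passed as higher and 3 as lower (median log2 ratio 0.44). Of the 48 members, 36 (75%) passed as higher and none as lower, and of all measured genes 23.7% passed as higher. Single arrays allow no test of that difference, and all of these lists were chosen with earlier results of these data known.

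**Figure D4:**
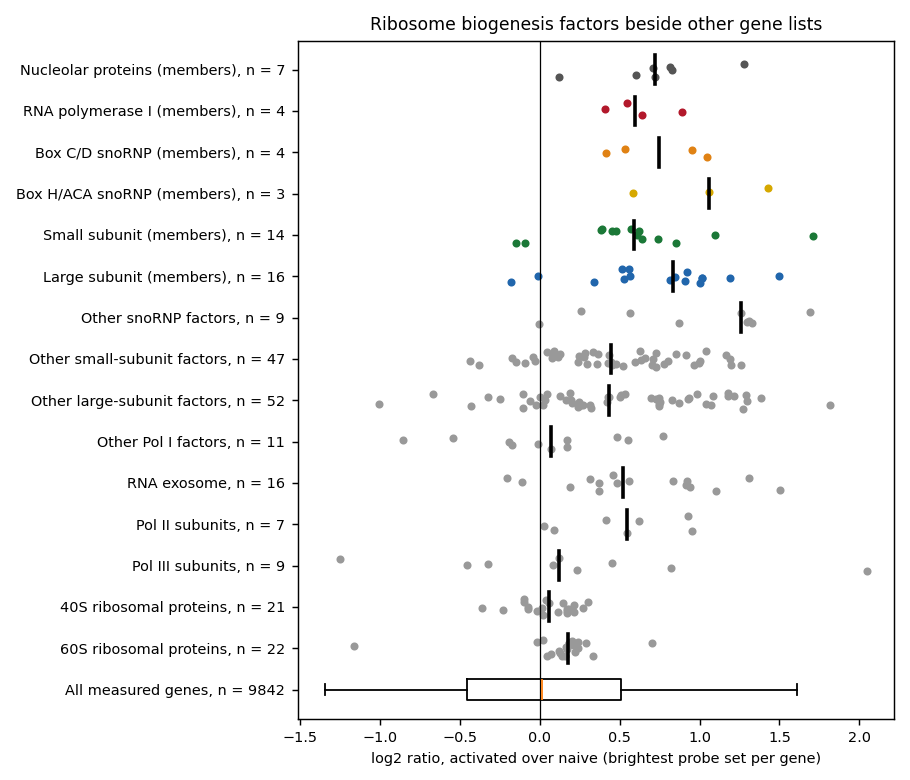
log2 ratio of activated over naive cells for the members by role (coloured) and for other gene lists (grey), 1 point per gene, with vertical scatter only for legibility. Black bars are medians, and for all 9842 measured genes the box shows quartiles and the whiskers the 5th and 95th percentiles; member medians lie between 0.59 and 1.06, and those of ribosomal proteins at 0.06 and 0.17 as deposited, below 0 with quantile or loess scaling.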

How the data were processed

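Expression was measured on 2 Affymetrix mouse arrays. The authors deposited 1 intensity per probe set, computed with the perfect-match minus mismatch model of dChip and normalized by its invariant set method, per the labels' design text. Present calls and confidence bounds, which the study's own rule also uses, were not used here. From 45101 probe sets, 64 controls were left out. Symbols came from the platform annotation, in which 34945 probe sets had 1 symbol, 932 several and 9160 none here. Entrez identifiers matched the RefSeq table (GRCm38.p6) for all 48 members and changed 0 symbols. The size rule (ratio of at least 1.4, difference above 100, floor of 100) and the brightest probe set per gene were used throughout, with Python 3.11.15, pandas 2.3.3 and statsmodels 0.14.6, and the procedure was tested on simulated data. Every member is named. Of other biogenesis genes, the 3 highest past the size rule and the 2 lowest per list are named. Members and lists were chosen with earlier results of these data known. Alternatives were other folds, differences, floors, scalings and probe set choices. The number of arrays limits the precision, and p-values and standard errors could not be formed.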

Additional observations from a re-analysis of the deposited data

How the results depend on the processing

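No paired analysis was possible because each group had 1 array. Under 12 alternative settings the median log2 ratio of the members stayed between 0.50 and 0.64 and no member was lower. Part of this was fixed in advance. The fold and difference minimums do not enter the ratio, so they could not move the median, and a stricter minimum could not add a lower call. The other floors, and requiring both arrays to reach 100, left the median at 0.64. The lowest member values were 264 in activated and 186 in naive cells. A floor of 50, or requiring both arrays to reach 100, therefore could not change any member's ratio or call. A floor of 200 changed only the log2 ratio of Rrp12, to 0.74. With a fold minimum of 2, 11 members and 18 member probe sets were higher, by construction of the stricter rule, against 12.1% of all genes. With a difference minimum of 200, 31 members were higher, against 19.1% of all genes. Quantile normalization and loess each left 29 higher, with medians of 0.54 and 0.56, against 21.8% and 22.6% of all genes. Taking the median over a gene's probe sets left 32, against 22.5%, and the probe set with the lowest ratio left 24, against 18.4%. In that last setting Wdr75 (-0.17), Bop1 (-0.10), Noc2l (-0.19) and Nip7 (-0.56), which had passed, turned below 0. So did Polr1a (-0.31) and Tcof1 (-0.15), which had not passed. The setting takes each gene's lowest probe set, so any gene with a measured probe set below 0 had to fall there. Why those probe sets differ from the brightest was not tested. With a difference minimum of 50, 1 member probe set was lower. Leaving aside the fold of 2, 16 members passed under each of the 11 other settings that gave them a value, namely Bysl, Dkc1, Ebna1bp2, Gar1, Gnl3, Mybbp1a, Nhp2, Noc4l, Nop16, Nop2, Nop56, Nop58, Pes1, Rrp15, Rrs1 and Utp20. Gar1 had no value without probe sets that may match several transcripts. Ebna1bp2, Gar1, Gnl3, Nop16, Nop2, Nop58, Pes1, Rrp15 and Utp20 had 1 measured probe set each. The median and the lowest probe set could therefore not change their calls. A difference minimum of 50, a floor of 50 and requiring both arrays to reach 100 could not remove any member's call. Under all 12 settings, with the fold of 2 included, 6 members passed: Bysl, Nhp2, Noc4l, Nop16, Nop2 and Nop58. Neither joint count was made for all measured genes, so no background share can be set beside the 16 or the 6. No replicate could be left out, and the signal of dim probe sets limits the calls near 100.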

Other observations

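The machinery next to ribosome assembly was mixed. The RNA exosome and trimming genes, which remove spacers and degrade faulty RNA, numbered 16 measured genes, of which 8 were higher and none lower (median log2 ratio 0.52), against a background of 23.7% higher. Dis3, a nuclease of the exosome, was at 1108 in activated and 390.3 in naive cells, while Exosc5 was at 911 in activated and 1051 in naive cells and did not pass. Subunits specific to RNA polymerase II included 4 higher genes among 7 (median 0.55). Subunits of RNA polymerase III, which makes the 5S RNA and transfer RNAs, included 1 higher and 1 lower gene among 9 (median 0.12). These shares, 11.1% each, were under the background of 23.7% higher and 20.6% lower.

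Within RNA polymerase III, a pair of alternative subunits lay on opposite sides. Polr3g was at 191 in activated and 108 in naive cells, a difference under 100, while its paralogue Polr3gl was at 205 in activated and 486 in naive cells and was lower. The higher gene was Polr3k, at 1764 in activated and 426 in naive cells. These genes were named after their values were seen.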
